A study of Arachis hypogaea with 14 samples.

Results

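The change in small RNA abundance between mid and early seed growth was compared between 2 peanut lines. For every sequence in the deposited small RNA table, the change from 15 to 35 days after flowering (DAF) in line 8107 was set against the same change in line 8106. Both are recombinant inbred lines of the 8th generation of peanut (Arachis hypogaea). Line 8107 has very large ("super") pods and 8106 has medium pods, and the labels name no transgene, mutation or treatment in either. Small RNA was sequenced from fresh seeds of 8107 at 35 DAF, 8107 at 15 DAF, 8106 at 35 DAF and 8106 at 15 DAF, with 3 libraries in each of these 4 groups. These 12 libraries were used of the 14 samples in the series. The other 2 are degradome libraries, which sequence the 5′ ends of cut transcripts. The table lists 795 different sequences, of which 273 match known miRNAs, 140 are other arms of known hairpins and 382 are predicted candidates. Of the 795, 395 reached 10 normalized reads in at least 3 libraries and were tested. Whole seeds were used, so a smaller share of a tissue and less RNA per cell cannot be told apart, and no cell type was assigned. Whether the replicates are separate plants is not given in the labels, and the p-values therefore describe the spread among these libraries, which may be technical.

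A plant miRNA is cut from a hairpin precursor as a duplex of the guide strand and its partner, the passenger or star strand. The strand loaded into an ARGONAUTE protein pairs with a target mRNA, which is then cut or translated less. Many conserved families act on transcription factors that set organ growth and the timing of development: miR156 on SPL factors, miR172 on AP2-like factors, miR167 and miR160 on auxin response factors, miR166 on class III HD-ZIP factors, miR164 on NAC factors, miR319 on TCP factors and miR171 on SCL factors. Others act on nutrient and stress genes, such as miR398 on copper superoxide dismutases, miR395 on ATP sulfurylase, and miR482 and miR2118 on NB-LRR disease resistance genes.

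Each entry is named after the miRNA it resembles, with a prefix for the species: mtr for Medicago truncatula, gma for soybean, ahy for peanut, mdm for apple, nta for tobacco, ptc for poplar, sly for tomato and vvi for grapevine. L and R with a sign count bases gained or lost at the 5′ and 3′ end, and ss marks substitutions. Hairpin arms are written MIR with p5 or p3, and predicted candidates PC. The sequences below carry the main results. They are written 5′ to 3′ as deposited, with T for U, and capitals mark the seed, bases 2 to 8, which weighs most in target pairing. The first set holds families in which the strands or forms of 1 family differed in their response.
ahy-miR167-3p_L-1: gATCATGTggcagtttcacc
ahy-miR167-5p: tGAAGCTGccagcatgatctt
sly-miR167b-3p: aGGTCATCtagcagcttcaat
mdm-miR156a_1ss11GA: tGACAGAAgaaagtgagcac
nta-miR156a_R+3_1ss11GA: tGACAGAAgaaagtgagcaccca
mtr-miR156e: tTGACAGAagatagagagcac
ptc-MIR156c-p3_1ss12AC: gCTCACTTctccttctgtcagct
mtr-miR172c-5p: gTAGCATCatcaagattcaca
mtr-miR172d-3p_R+1: aGAATCTTgatgatgctgcag
mtr-miR166e-5p_2ss10GT11CT: gGAATGTTgtttggctcgagg
mtr-miR166a: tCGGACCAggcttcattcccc
mtr-miR166a_1ss20CT: tCGGACCAggcttcattcctc
mtr-miR166a_L+2: gGTCGGACcaggcttcattcccc
mtr-miR319a-3p_R+1_2: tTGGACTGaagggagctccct
mtr-miR319a-3p_L+1_1ss21CT: tTTGGACTgaagggagctcct
mdm-miR482a-5p_L-1_2ss11TG20AT: gGAATGGGcggtttgggatga
gma-miR482b-3p: tCTTCCCTacacctcccatacc
gma-miR482b-3p_R-4: tCTTCCCTacacctccca

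The second set holds entries with large differences whose family has few forms here, or that fell in 8107. It also holds gma-miR1511_R+1_1, whose stage change was called in neither line, beside its shorter form gma-miR1511_R-2.
PC-3p-23476_334: aGAGAACGaaggcacaatgagagc
PC-3p-646_6682: tGCTCACTctcttgctgtcacc
ahy-MIR3516-p5: aTATTGACagaagtgttcttc
mtr-miR2199_1ss17AG: tGATACACtagcacgggtcac
mtr-miR164a: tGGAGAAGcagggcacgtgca
mtr-miR398b: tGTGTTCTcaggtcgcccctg
ahy-miR398_R+1: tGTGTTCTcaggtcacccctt
gma-miR1511_R+1_1: aACCAGGCtctgataccatga
gma-miR1511_R-2: aACCAGGCtctgatacca

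Values are the authors' normalized reads. Their sum over the listed sequences was 464658 to 527704 in 8107 at 35 DAF, 604325 to 641690 in 8107 at 15 DAF, 998924 to 1086382 in 8106 at 35 DAF and 660450 to 684045 in 8106 at 15 DAF, and the totals of the groups did not overlap. The pair of most abundant sequences, ahy-miR167-5p and gma-miR482b-3p, held 47.5 to 49.1% of this sum in 8107 at 35 DAF, 49.0 to 52.4% in 8107 at 15 DAF, 65.3 to 70.1% in 8106 at 35 DAF and 58.2 to 60.7% in 8106 at 15 DAF. The steps between values put the depth at 580010 to 3243622 reads per library over the listed sequences, and in 11 libraries no value above 0 was worth under 6 reads. A sequence listed at 0 may thus still have been present. Replicate 2 stood apart in every group: among the 3 libraries of its group it had the highest share of 18-nt and 21-nt reads and the lowest share of 24-nt reads. Replicate 2 libraries of different groups deviated from their group means together (Pearson r over entries 0.512 to 0.677 for their 6 pairs). The labels do not say what replicate 2 marks, and its part in single results was not tested beyond the values without it given here.

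Of the 395 tested sequences, 162 (41.0%) changed differently with stage in 8107 and 8106 (limma on log2 of normalized reads + 1, Benjamini-Hochberg adjusted p under 0.05). The difference, 8107 minus 8106, was above 0 for 88 of them, 22.3% of those tested, and below 0 for 74, 18.7%. Its median over all 395 was 0.52. Within the lines, 183 sequences (46.3%) changed between 35 and 15 DAF in 8107 and 143 (36.2%) in 8106. Of the 162, 33 were called in both lines in opposite directions. Of these, 19 rose in 8107 and fell in 8106, and 14 fell in 8107 and rose in 8106. A further 63 were called in 8107 and not in 8106 (36 rose, 27 fell), and 39 in 8106 and not in 8107 (17 rose, 22 fell). Another 18 moved the same way in both lines by different amounts (5 rose, 13 fell), and 9 were called in neither. For 32 of the 162, all 3 libraries of at least 1 group were listed at 0, and the size of their difference depends on the pseudocount. Without the replicate 2 libraries of all 4 groups, 182 sequences were called, 102 above 0 and 80 below, and 42 moved in opposite directions.

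The direction of many differences depended on the scale. When every library was brought to the same total, 153 sequences were called above 0 and 32 below. Thus 82.7% of the calls were above 0 against 54.3% on the deposited scale, and the median over all 395 was 1.32. With quantile normalization 63 were above and 78 below, 44.7% above 0, with a median of 0.10. Dividing each library by its own total moves all its entries alike, so gaps between entries do not rest on the totals. Differences are given below on the deposited scale unless another is named.

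**Figure D1:**
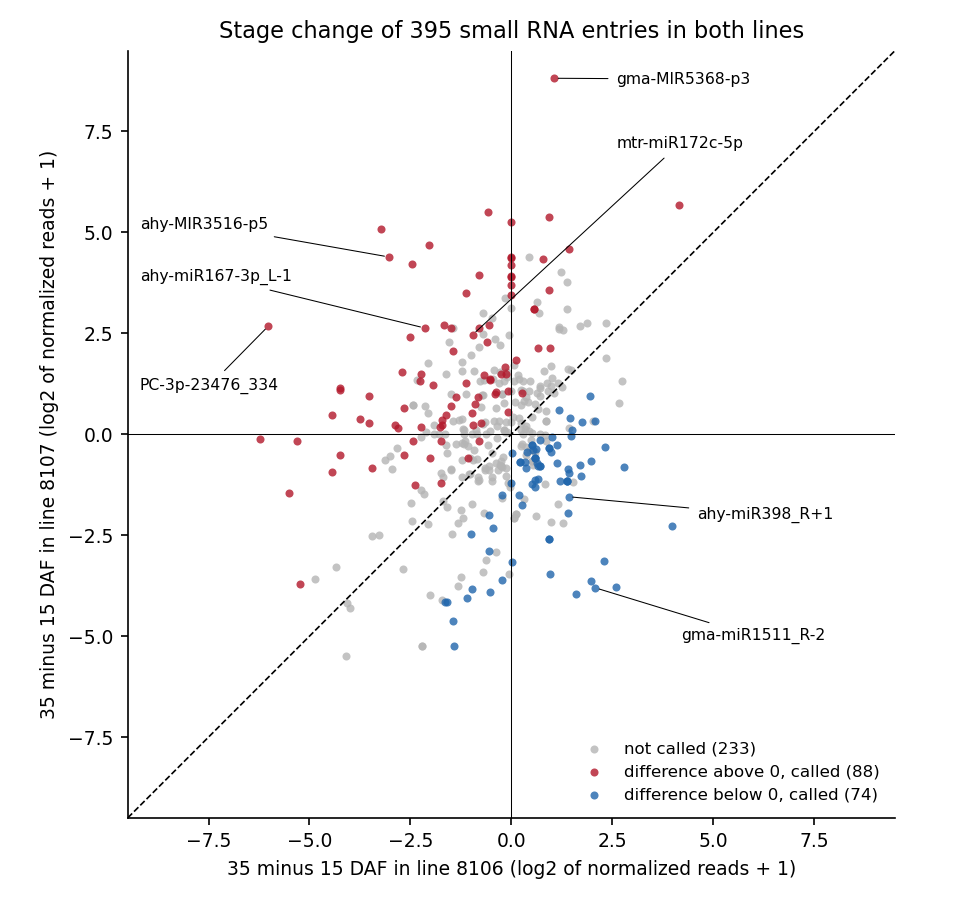
Change between 35 and 15 DAF in line 8107 (vertical axis) against the same change in line 8106 (horizontal axis), both as log2 of normalized reads + 1, for the 395 tested sequences, 1 point each. Points above the dashed line of equal change have a difference above 0 (88 called, red), points below it a difference below 0 (74 called, blue). The upper left quadrant holds entries that were higher at 35 DAF in 8107 and lower at 35 DAF in 8106, among them ahy-miR167-3p_L-1 and ahy-MIR3516-p5.

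In the miR167 family, which acts on auxin response factors, the passenger strand rose in 8107 and fell in 8106, and the guide strand rose in 8106 alone. The passenger ahy-miR167-3p_L-1 had 7987, 8979 and 7213 normalized reads in 8107 at 35 DAF, against 1149, 1478 and 1272 at 15 DAF. Line 8106 had 349.8, 480.3 and 327 at 35 DAF, against 1736, 1699.5 and 1638 at 15 DAF. The 8107 libraries at 35 DAF were the highest of the 12 and the 8106 libraries at 35 DAF the lowest, with no overlap between groups within a line. Its stage change was 2.63 in 8107 and -2.15 in 8106 on the log2 scale, a difference of 4.78 ± 0.22 (SE; limma adjusted p = 1.76e-07). The guide ahy-miR167-5p, the most abundant sequence of the table, had 185429, 202558 and 171057 reads in 8107 at 35 DAF, against 182635, 213654 and 187910.0 at 15 DAF. In 8106 it had 406251, 491869 and 401955 at 35 DAF, against 203913, 218322 and 216991 at 15 DAF. Only the 8106 libraries at 35 DAF stood apart from the other 9, and the difference was -1.08 ± 0.20 (limma adjusted p = 0.00154). Bringing all libraries to 1 total ended that call, at a difference of -0.14 (adjusted p = 0.455), as did quantile normalization, at -0.28 (adjusted p = 0.493). A rarer passenger form, sly-miR167b-3p, had 32.8, 57.3 and 27.2 reads in 8107 at 35 DAF and was listed at 0 in the other 9 libraries. It and 1 more of the 4 tested sequences on that strand reached 10 reads in 8107 at 35 DAF alone, so the filter fixed their direction, and they support nothing on the strand. Of the 7 tested sequences on the guide's own strand, 1 was above 0, 1 below and 5 were not called.

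The miR156 family, which holds plants in the juvenile phase through SPL factors, split by form. The 20-nt mdm-miR156a_1ss11GA had 2280.4, 3913 and 2115 reads in 8107 at 35 DAF, against 741, 1098 and 919 at 15 DAF. Line 8106 had 24.2, 42.2 and 23.7 at 35 DAF, against 149, 276 and 182 at 15 DAF. It rose in 8107 and fell in 8106, the 4 groups did not overlap, and the difference was 4.26 ± 0.45 (limma adjusted p = 5.29e-05). The 21-nt mtr-miR156e starts 1 base earlier and differs from it by the substitutions T12A and A15T, counted from the 5′ end of mtr-miR156e, so its seed is shifted by 1 base. Its reads were 5503, 6829.8 and 4961 in 8107 at 35 DAF, against 1326, 1639 and 1640.4 at 15 DAF. Line 8106 held 7149, 10512 and 5767 at 35 DAF, against 1266, 1724 and 1511 at 15 DAF. It rose in both lines, by 1.90 in 8107 and 2.35 in 8106, and the difference of -0.44 ± 0.31 was not called (limma adjusted p = 0.275).

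Other miR156 forms also differed from each other. The form nta-miR156a_R+3_1ss11GA, identical to the 20-nt form over its 20 bases and longer at the 3′ end, had 121, 170.1 and 191 reads in 8107 at 35 DAF, against 8.54, 8.22 and 11.3 at 15 DAF, and was listed at 0 in 8106 at 35 DAF, against 0, 4.16 and 0 at 15 DAF. It rose in 8107 and was at or near 0 in 8106. The passenger arm ptc-MIR156c-p3_1ss12AC had 1804, 1209 and 1767 reads in 8107 at 35 DAF, against 2575, 1986 and 2184 at 15 DAF. Libraries of 8106 had 86.4, 46.9 and 109.8 at 35 DAF, against 1779, 1169.7 and 1535 at 15 DAF. Here the 8106 libraries at 35 DAF stood far below the other 9, and the difference of 3.74 ± 0.42 (limma adjusted p = 6.56e-05) went with a fall in 8106 and no call in 8107. In contrast, ppe-miR156a_R+1_1ss5AG, named from peach, was called below 0, at -2.62 ± 0.39 (limma adjusted p = 4.20e-04), with 38.8, 46.1 and 28.04 reads in 8107 at 35 DAF, against 53.6, 71.2 and 52.7 at 15 DAF. Line 8106 had 136, 222 and 122 at 35 DAF, against 33.9, 47.8 and 36.1 at 15 DAF. Summed over 23 sequences, the family averaged 12345 ± 2043 reads in 8107 at 35 DAF, against 5726 ± 125 at 15 DAF. Line 8106 averaged 8847 ± 2623 at 35 DAF, against 3838 ± 41.2 at 15 DAF (SD, n = 3 each). The sum's difference of -0.07 ± 0.26 was not called (limma adjusted p = 0.891), but it was 0.87 and called with equal totals (adjusted p = 0.00837) and 0.92 and called with quantile normalization (adjusted p = 0.0107).

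For miR172, which promotes the adult phase by acting on AP2-like factors, both strands had a difference above 0. The guide mtr-miR172d-3p_R+1 had 2699, 3319.5 and 2477 reads in 8107 at 35 DAF, against 2727, 3521 and 3253 at 15 DAF. Line 8106 held 880.1, 1068 and 890.5 at 35 DAF, against 2879.9, 3266 and 3304 at 15 DAF. It fell in 8106 to below every other library and overlapped between stages in 8107, with a difference of 1.57 ± 0.20 (limma adjusted p = 1.93e-04). The passenger mtr-miR172c-5p had 315, 359.9 and 357 reads in 8107 at 35 DAF, against 63.6, 60.3 and 59.6 at 15 DAF. In line 8106 there were 46.05, 52.9 and 39.3 at 35 DAF, against 87.4, 84.5 and 97.4 at 15 DAF. With little spread between libraries it rose in 8107 and fell in 8106, and its difference was 3.42 ± 0.20 (limma adjusted p = 8.77e-07). Across the list of phase change families (miR156 and miR172 among those tested), 10 of 25 tested sequences were above 0, against 22.3% of all tested, and 1 below, against 18.7%, with a median of 1.57 against 0.52 over all sequences. Equal totals gave 16 above and 1 below, and quantile normalization 7 above and 3 below.

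**Figure D2:**
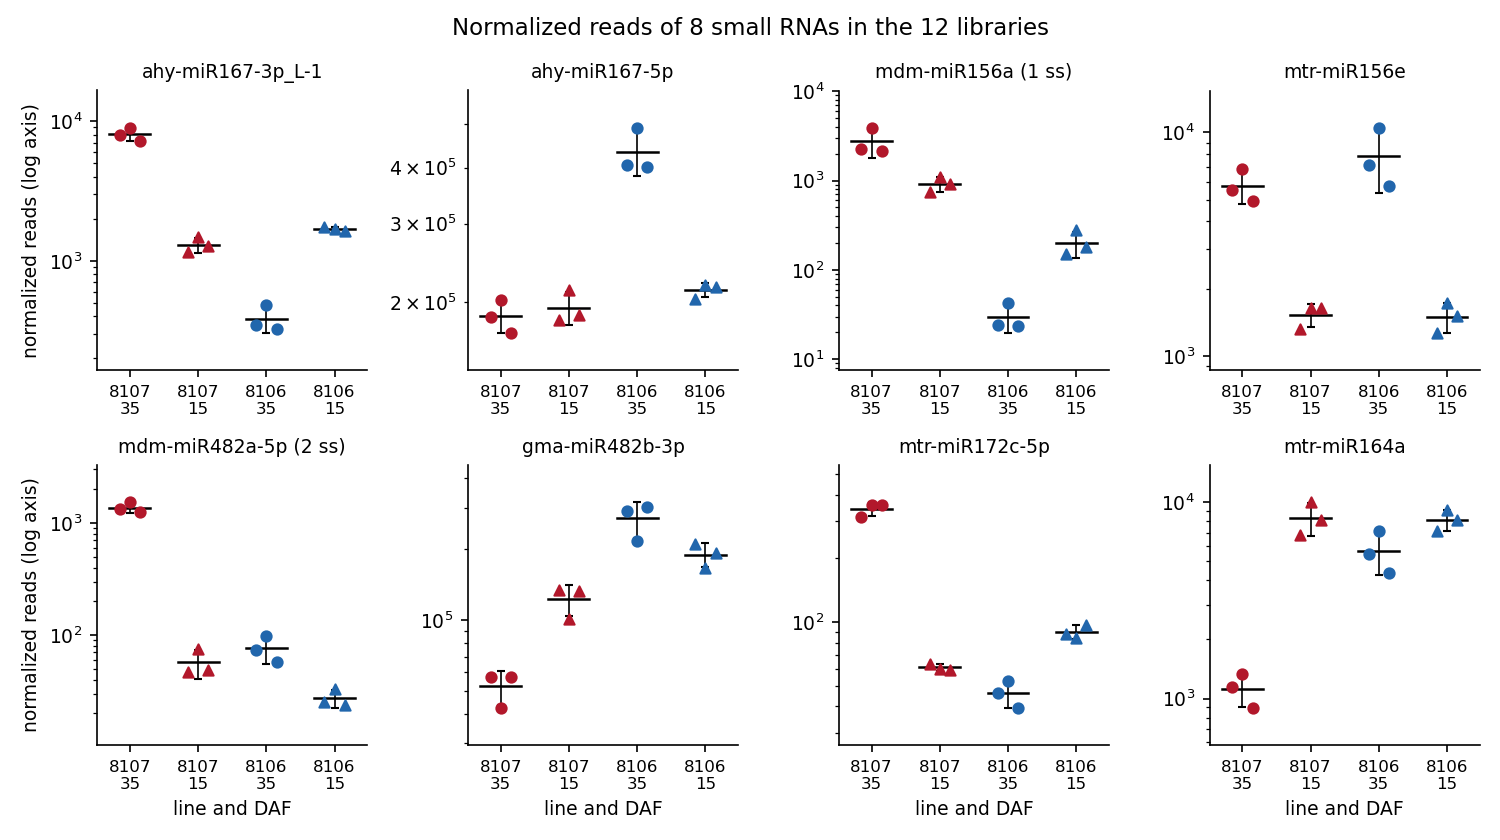
Normalized reads (log axis) of 8 small RNAs in each of the 12 libraries, grouped by line and DAF. Points are libraries, red for 8107 and blue for 8106, circles for 35 DAF and triangles for 15 DAF. The bars give the mean and SD of 3 libraries. The passenger strands ahy-miR167-3p_L-1 and mtr-miR172c-5p were highest in 8107 at 35 DAF, while gma-miR482b-3p and mtr-miR164a were lowest there.

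In the miR166 family, which acts on the HD-ZIP III factors of leaf and vascular patterning, 12 of 13 guide-strand sequences were called below 0 (92.3%, against 18.7% of all tested). The 13 hold 12 distinct sets of values, since mtr-miR166a_L+1R-1_1 and mtr-miR166a_L+1R-1_2 are identical. With equal totals only 6 of the 74 sequences of all organ growth families were called below 0, so most of these 12 calls rest on the scale. The most abundant, mtr-miR166a, had 43854, 48236 and 41817 reads in 8107 at 35 DAF, against 52742, 61968 and 60080.1 at 15 DAF. Line 8106 had 58724, 75072 and 53612 at 35 DAF, against 40612, 43850.0 and 42658 at 15 DAF. With no overlap between stages in either line, it fell in 8107 and rose in 8106, and the difference was -0.93 ± 0.20 (limma adjusted p = 0.00412), but its direction rests on the scale. With equal totals it was 0.009 (adjusted p = 0.972) and with quantile normalization 0.28 (adjusted p = 0.682). The form mtr-miR166a_1ss20CT, which differs from mtr-miR166a by C20T counted from the 5′ end, had 6314, 7167 and 5649.5 reads in 8107 at 35 DAF, against 12370.5, 14820.3 and 13692 at 15 DAF. In 8106 it had 15499, 21131 and 13686 at 35 DAF, against 9957, 11257 and 10229.8 at 15 DAF. Its difference of -1.75 ± 0.23 (limma adjusted p = 1.94e-04) stayed below 0 and called under every scale tried. The 23-nt mtr-miR166a_L+2, which carries 2 more bases at the 5′ end and hence another seed, had 8.95, 8.06 and 10.4 reads in 8107 at 35 DAF, against 117, 56.2 and 107 at 15 DAF. Line 8106 had 113, 39.5 and 176 at 35 DAF, against 142, 55.1 and 95.7 at 15 DAF. The difference was -3.18 ± 0.75 (limma adjusted p = 0.007). The 5′ entry mtr-miR166e-5p_2ss10GT11CT went the other way, with 945, 1294 and 889 reads in 8107 at 35 DAF, against 174, 217 and 193 at 15 DAF. Line 8106 held 5.25, 8.04 and 5.42 at 35 DAF, against 34.4, 50.2 and 36.5 at 15 DAF. All 4 groups were separate, and the difference was 4.92 ± 0.31 (limma adjusted p = 1.10e-06).

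Among the other families that act on growth regulators, miR164, the regulator of NAC factors at organ boundaries, fell in 8107. Its main form mtr-miR164a had 1149.5, 1326 and 896 reads in 8107 at 35 DAF, against 6817, 10019 and 8146 at 15 DAF. Libraries of 8106 had 5461, 7178 and 4375 at 35 DAF, against 7141, 9109.8 and 8159 at 15 DAF. The 8107 libraries at 35 DAF lay below the other 9, the change in 8106 of -0.54 was not called (limma adjusted p = 0.0789), and the difference was -2.35 ± 0.31 (adjusted p = 1.94e-04). For miR319, the 2 main forms went apart. The form mtr-miR319a-3p_R+1_2 had 1929.8, 3222 and 1784 reads in 8107 at 35 DAF, against 1287, 1603 and 1380.5 at 15 DAF. Line 8106 had 34.7, 72.3 and 44.1 at 35 DAF, against 239, 393 and 305 at 15 DAF. By comparison, mtr-miR319a-3p_L+1_1ss21CT, which starts 1 base earlier and differs by T21C counted from its own 5′ end, had 2520.5, 3753 and 2287 reads in 8107 at 35 DAF, against 2723, 3239.8 and 2612 at 15 DAF. Line 8106 held 2919, 5296 and 2411 at 35 DAF, against 967, 1433 and 1274 at 15 DAF. In 8106 the first fell and the second rose, and in 8107 neither was called. The differences were 3.30 ± 0.43 and -1.50 ± 0.41 (limma adjusted p = 1.93e-04 and 0.0146), the second not called with equal totals (-0.56, adjusted p = 0.242).

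The miR171 guide gma-miR171n_1ss20TC had 533, 599 and 418 reads in 8107 at 35 DAF, against 1533, 2044 and 1649.7 at 15 DAF. In line 8106 there were 1345, 1837 and 1166 at 35 DAF, against 1071, 1344 and 1161 at 15 DAF. It fell in 8107 below all other libraries, with a difference of -2.02 ± 0.28 (limma adjusted p = 2.45e-04). The opposite-strand sequence nta-miR171a was listed at 0 in all 3 8106 libraries at 35 DAF, against 20.5, 15.6 and 27.7 reads at 15 DAF. Line 8107 had 21.6, 30.4 and 20.03 at 35 DAF, against 42.2, 47.9 and 49.1 at 15 DAF. The miR160 guide mtr-miR160a, another regulator of auxin response factors, had 1328, 1653 and 1178 reads in 8107 at 35 DAF, against 3267, 4629 and 3870.1 at 15 DAF. Line 8106 had 2454, 3526 and 2296 at 35 DAF, against 2699.8, 3633 and 3284 at 15 DAF. It fell in 8107, and the difference was -1.27 ± 0.29 (limma adjusted p = 0.00593), a call lost with equal totals (-0.33, adjusted p = 0.301). A low-abundance miR169 form, mtr-miR169f_R+2_1ss1AT, from a family that acts on NF-YA factors, had 8.95, 7.61 and 16.02 reads in 8107 at 35 DAF, against 4.75, 12.3 and 7.65 at 15 DAF. In 8106 it had 2.83, 0 and 0 at 35 DAF, against 19.5, 15.9 and 25.2 at 15 DAF. It fell in 8106 and its difference was 4.12 ± 0.82 (limma adjusted p = 0.00271). The abundant miR159 forms, which act on GAMYB-like factors, showed no called difference: mtr-miR159a_1ss21AT gave -0.51 ± 0.38 (limma adjusted p = 0.299) and ahy-miR159 gave -0.50 ± 0.39 (limma adjusted p = 0.316). Over the list of organ growth families (miR159, miR164, miR166, miR169, miR171, miR319, miR394 and miR396 tested), 18 of 74 sequences were above 0 (24.3%, near the 22.3% of all tested) and 24 below (32.4%, against 18.7%), with a median of -0.26. With equal totals the balance turned, to 34 above and 6 below, with a median of 0.50 against 1.32 over all sequences.

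Auxin families as a list (miR160, miR167, miR390 and miR393) had 10 of 22 sequences above 0 (45.5%, against 22.3% of all tested) and 2 below (9.09%, against 18.7%), with a median of 1.07. The 10 include the 2 miR167 passenger sequences whose direction the filter fixed, and these support nothing on the list. Equal totals gave 14 above and 0 below, and quantile normalization 5 above and 1 below. Besides miR167, the calls above 0 included miR390, which triggers the trans-acting siRNAs that restrain auxin response factors, and miR393, which acts on the TIR1-type auxin receptors. The miR390 sum averaged 667 ± 129 reads in 8107 at 35 DAF, against 907 ± 104 at 15 DAF. Line 8106 averaged 86.8 ± 27.5 at 35 DAF, against 515 ± 64.4 at 15 DAF (SD, n = 3 each). It fell in 8106 by 2.59 on the log2 scale and the change in 8107 of -0.45 was not called, for a difference of 2.14 ± 0.31 (limma adjusted p = 4.26e-04). The miR393 sum averaged 51.9 ± 2.89 reads in 8107 at 35 DAF, against 23.5 ± 6.76 at 15 DAF. Line 8106 averaged 12.3 ± 5.72 at 35 DAF, against 28.4 ± 3.91 at 15 DAF. It rose in 8107 and fell in 8106, with a difference of 2.39 ± 0.53 (limma adjusted p = 0.00604), a call lost with quantile normalization (2.09, adjusted p = 0.209).

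Copper-responsive families were mostly below 0. Of 8 tested sequences of miR397, miR398 and miR408, 4 were called below 0 (50.0%, against 18.7% of all tested) and 0 above (against 22.3%), with a median of -2.997. The pseudocount of 10 called all 8 below 0, and that of 0.5 called 3 below and 1 above. The guide mtr-miR398b had 89.5, 120.0 and 83.3 reads in 8107 at 35 DAF, against 1375, 2414 and 1579 at 15 DAF. Line 8106 had 142, 230.1 and 127 at 35 DAF, against 437, 565 and 513 at 15 DAF. It fell in both lines, by 4.16 in 8107 and 1.64 in 8106, a difference of -2.52 ± 0.38 (limma adjusted p = 4.27e-04). The second guide ahy-miR398_R+1, which shares its seed and differs by G15A and G21T counted from the 5′ end of mtr-miR398b, had 250.5, 373 and 202 reads in 8107 at 35 DAF, against 646, 920.4 and 798 at 15 DAF. Line 8106 held 147, 269 and 109.8 at 35 DAF, against 52.1, 72.03 and 58.8 at 15 DAF. It fell in 8107 and rose in 8106 with no overlap between stages in either line, a difference of -2.96 ± 0.46 (limma adjusted p = 5.42e-04). The arm ahy-MIR398-p5_1ss9CA was listed at 0 in all 3 8106 libraries at 15 DAF and had 15.3, 25.5 and 8.13 reads there at 35 DAF, while 8107 had 10.4, 25.97 and 0 at 35 DAF, against 41.8, 23.3 and 33.02 at 15 DAF.

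The sulfur and phosphate families moved the other way. Of 10 sequences of miR395, miR399 and miR2111, 5 were above 0 (50.0%, against 22.3% of all tested) and 0 below (against 18.7%), with a median of 2.08. Equal totals gave 7 above and 0 below, and quantile normalization 3 above and 0 below. A filter at 50 normalized reads left 1 of them tested. The main miR395 form, mtr-miR395a_L+1R-1_1ss21TC, from the family that acts on ATP sulfurylase, had 185, 251 and 151 reads in 8107 at 35 DAF, against 177, 248 and 219.8 at 15 DAF. Libraries of 8106 had 34.7, 44.5 and 33.9 at 35 DAF, against 176, 231 and 214 at 15 DAF. The 8106 libraries at 35 DAF were the lowest of the 12 and the 8107 stages overlapped, giving a difference of 2.27 ± 0.31 (limma adjusted p = 2.07e-04). The miR399 sum, whose family acts on the ubiquitin conjugase of phosphate homeostasis, differed by 1.64 ± 0.54 (limma adjusted p = 0.0388). That call was lost with quantile normalization (0.90, adjusted p = 0.466), median centring (1.26, adjusted p = 0.228) and no filter (adjusted p = 0.0607). It was also lost without any 1 of 8 libraries (1.38 to 1.69, adjusted p 0.0677 to 0.0908), namely replicate 1 or 2 of 8107 at 35 DAF, 1 or 3 of 8107 at 15 DAF, 1 or 3 of 8106 at 35 DAF and 2 or 3 of 8106 at 15 DAF. In contrast, mtr-miR2111a-5p_R-1 at -0.89 ± 0.66 was not called (limma adjusted p = 0.301).

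Families that act on NB-LRR resistance genes were mostly below 0. Of 15 tested sequences of miR482, miR1507 and miR2118, 9 were called below 0 (against 18.7% of all tested) and 2 above (against 22.3%). Their median was -1.40. With equal totals 4 were below and 2 above, against 32 below and 153 above of all 395 tested. The second most abundant sequence of the table, gma-miR482b-3p, had 57476, 42376 and 57219 reads in 8107 at 35 DAF, against 133822, 100758 and 132338 at 15 DAF. Line 8106 had 291056, 217129 and 302462 at 35 DAF, against 210177, 165779 and 193079 at 15 DAF. It fell in 8107, was higher in 8106 at both stages, and differed by -1.73 ± 0.28 (limma adjusted p = 6.47e-04). The call was lost with equal totals (-0.79, adjusted p = 0.0605) and with quantile normalization (-0.17, adjusted p = 0.807). On the opposite strand of the family lay mdm-miR482a-5p_L-1_2ss11TG20AT, which need not come from the same hairpin. This sequence had 1325, 1534 and 1240.1 reads in 8107 at 35 DAF, against 46.5, 75.3 and 48.7 at 15 DAF. Line 8106 held 73.9, 98.5 and 56.9 at 35 DAF, against 25.1, 33.2 and 23.9 at 15 DAF. It rose in both lines, by 4.59 in 8107 and 1.43 in 8106, a difference of 3.17 ± 0.35 (limma adjusted p = 6.16e-05). Another abundant member, gma-miR482a-3p_L-2_1ss14GA, was not called, at -0.33 ± 0.64 (limma adjusted p = 0.713).

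The strands of miR1507 also parted. The 5′ strand mtr-miR1507-5p_R-1_2ss5TA18AG had 574, 750.3 and 468 reads in 8107 at 35 DAF, against 78.3, 108 and 95.4 at 15 DAF. In line 8106 there were 43.6, 86.1 and 42.02 at 35 DAF, against 139.9, 171 and 153 at 15 DAF. This strand rose in 8107 and fell in 8106. The 3′ strand mtr-miR1507-3p_L+1R-1 had 967, 835 and 869 reads in 8107 at 35 DAF, against 2153, 1998 and 1989.9 at 15 DAF. Line 8106 had 1757, 1740.0 and 1851 at 35 DAF, against 1859, 1687 and 1879.8 at 15 DAF. It fell in 8107 with no overlap and its 8106 stages overlapped. The differences were 4.14 ± 0.40 for the 5′ strand and -1.18 ± 0.13 for the 3′ strand (limma adjusted p = 3.02e-05 and 5.75e-05), the second not called with equal totals (-0.24, adjusted p = 0.191).

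The split between strands recurred in other families, though not in all. Each sequence was assigned to a strand by aligning it with its family's most abundant sequence and with that sequence's reverse complement, and 22 families had tested sequences on both strands. Some assignments went against the arm names, so the counts by strand are approximate. The arms gma-MIR482c-p5_2ss12GA19CT and gma-MIR482c-p5_2ss12GA20CT, called below 0, were placed on the strand of gma-miR482b-3p at the lowest accepted score of 9. Both gma-MIR398d-p3 and ahy-MIR398-p5_1ss9CA were placed opposite mtr-miR398b. On the strand opposite to the most abundant sequence, 19 of 47 tested sequences were called above 0 (40.4%) and 6 below (12.8%), with a median of 0.85. On that sequence's own strand 16 of 104 were above (15.4%) and 44 below (42.3%), with a median of -0.74. Of the 44, 12 were miR166 and 9 miR1511 sequences. With identical sequences counted once, 15 of 96 on the own strand were above and 39 below, and 19 of 46 on the opposite strand were above and 6 below. Over all tested sequences the shares were 22.3% above and 18.7% below. Some sequences reached 10 reads in libraries of 1 group only, so that the filter fixed their direction. Without these, 15 of 40 on the opposite strand were above and 6 below, with a median of 0.66, and 15 of 102 on the own strand were above and 44 below. With equal totals the opposite strand had 31 above and 5 below (median 1.78) and the own strand 32 above and 12 below (median 0.18). With quantile normalization the medians were 0.60 and -0.64, so the directions moved with the scale while the opposite strand's median was the higher on each of these scales. Taking the most abundant sequence of each strand, the opposite strand had the larger difference in 14 of the 22 families. These include miR398, with gma-MIR398d-p3 (-1.40, mean 15.5 reads) on the opposite strand and mtr-miR398b at -2.52. The arm ahy-MIR398-p5_1ss9CA, at nearly the same mean (15.3 reads), had -6.26, which would turn that family's gap. In 6 families, miR167, miR319, miR171, miR1507, miR482 and miR166, the opposite strand was called above 0 and the main strand below, and in 0 families was it the reverse. The strands were matched by family, so the members of a pair need not come from the same hairpin. These opposed calls depend on the scale. With equal totals the main strand was not called in miR167, miR319, miR1507, miR482 and miR166 (-0.79 to 0.009, limma adjusted p 0.0605 to 0.972). The miR171 main strand stayed called under every setting tried. Among the wide gaps was that of miR167, at 5.87. The gap of miR319 (ptc-MIR319a-p5 against mtr-miR319a-3p_L+1_1ss21CT), also 5.87, depends on the pseudocount. The poplar-named arm ptc-MIR319a-p5 had 118, 160.3 and 68.9 reads in 8107 at 35 DAF, against 13.3, 9.59 and 0 at 15 DAF, and was listed at 0 in all 8106 libraries. Its difference ran from 2.85 to 6.69 over the settings tried, and its call was lost without the replicate 2 libraries (4.59, adjusted p = 0.0671). Families in which the main strand had the larger difference included miR396, which acts on growth-regulating factors, miR168 and miR530.

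**Figure D3:**
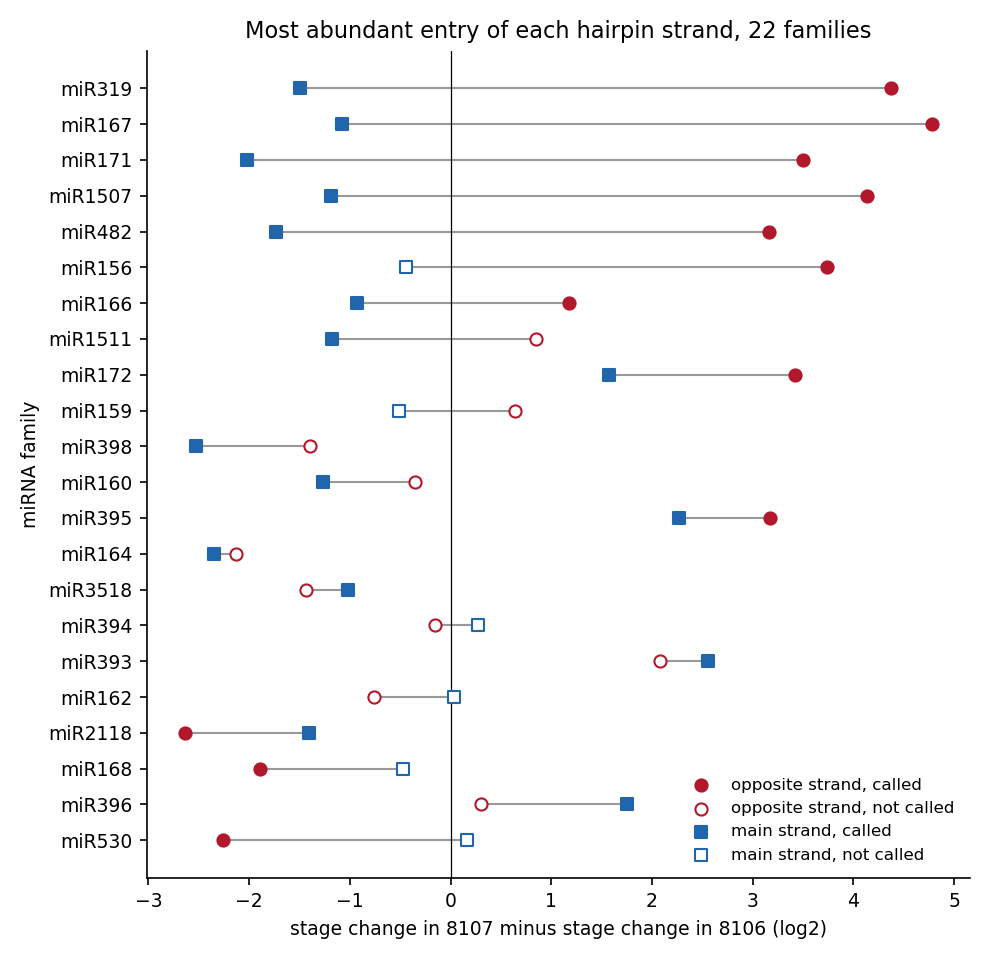
Difference of the stage changes, 8107 minus 8106 (log2, horizontal axis), for the most abundant tested sequence on each hairpin strand of 22 families, ordered by the gap between the strands. Circles are the strand opposite to the family's most abundant sequence and squares the strand of that sequence; filled symbols were called. The circle lies to the right of the square in 14 families.

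Families that control the small RNA pathway itself had few calls on the deposited scale: of 11 tested sequences of miR162, miR168 and miR1515, 1 was above 0 and 1 below (18.2% called against 41.0% of all), with a median of 0.17. With equal totals 4 were above and 1 below. The guide gma-miR168a, which acts on AGO1, differed by -0.47 ± 0.36 and was not called (limma adjusted p = 0.315), but with quantile normalization the difference was 0.64 and called (adjusted p = 0.0195). Its passenger gma-MIR168a-p3 had 737, 995 and 582 reads in 8107 at 35 DAF, against 1628, 2113 and 1862 at 15 DAF. In 8106 it had 3069.8, 4982 and 2818 at 35 DAF, against 1897, 2759 and 2412 at 15 DAF. In 8107 at 35 DAF it was below all other libraries, and the difference was -1.89 ± 0.36 (limma adjusted p = 0.0021). The call above 0 was csi-miR1515_1ss11GA, named from sweet orange, at 2.30 ± 0.67 (limma adjusted p = 0.0195), which was lost without replicate 3 of 8107 at 35 DAF (2.09, adjusted p = 0.0505).

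Several sequences with the largest differences belonged to families registered in peanut or found mainly in legumes, or were predicted candidates. The arm ahy-MIR3516-p5 had 2964, 3667 and 2658 reads in 8107 at 35 DAF, against 126, 163 and 148 at 15 DAF. Line 8106 had 6.46, 8.04 and 0 at 35 DAF, against 37.2, 36.7 and 25.2 at 15 DAF. It rose in 8107, fell in 8106 and was higher in 8107 at both stages, with a difference of 7.44 ± 0.95 (limma adjusted p = 1.84e-04). Among other peanut-registered sequences, ahy-miR3514-3p had 4172, 2605 and 3884 reads in 8107 at 35 DAF, against 1093, 820.4 and 1000.2 at 15 DAF. Line 8106 held 1793, 1074 and 1685 at 35 DAF, against 1669.5, 1163 and 1341 at 15 DAF. This sequence rose in 8107 while its 8106 stages overlapped, with a difference of 1.75 ± 0.34 (limma adjusted p = 0.00256), and the replicate 2 library was lowest in every group. In the opposite direction, ahy-miR3508 had 300.4, 379 and 252 reads in 8107 at 35 DAF, against 3831, 4822 and 4631 at 15 DAF. Libraries of 8106 had 143, 221 and 139.6 at 35 DAF, against 277, 369 and 337 at 15 DAF. The 8107 libraries at 15 DAF stood far above the other 9, and it fell in both lines with a difference of -2.86 ± 0.30 (limma adjusted p = 5.29e-05). Over the peanut-registered list 5 of 16 were above 0 (31.2%, against 22.3% of all tested) and 2 below (12.5%, against 18.7%), with a median of 1.54. Without replicate 1 of 8106 at 15 DAF 3 were above.

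The Medicago-named mtr-miR2199_1ss17AG had 191, 295 and 191 reads in 8107 at 35 DAF, against 6.17, 6.85 and 4.03 at 15 DAF, and was listed at 0 in 8106 at 35 DAF, against 9.76, 5.54 and 10.5 at 15 DAF. The predicted 24-nt PC-3p-23476_334 had 359, 281 and 401 reads in 8107 at 35 DAF, against 53.2, 45.2 and 61.2 at 15 DAF, and was likewise listed at 0 in 8106 at 35 DAF, against 89.2, 37.4 and 78.1 at 15 DAF. Both rose in 8107 and fell in 8106. Another predicted candidate, PC-3p-646_6682, had 1389, 1425 and 1292 reads in 8107 at 35 DAF, against 588, 637 and 616 at 15 DAF. Line 8106 had 4.04, 7.37 and 16.3 at 35 DAF, against 162, 189 and 159 at 15 DAF. Its difference was 5.40 ± 0.48 (limma adjusted p = 1.83e-05), and its seed is shared with 1 other called entry, of the miR156 family. The arm gma-MIR5368-p3, from a family that resembles pieces of other RNAs, had 416, 499 and 441 reads in 8107 at 35 DAF and was listed at 0 in the other libraries except 1 of 8106 at 35 DAF. This arm reached 10 reads in 8107 at 35 DAF alone, so the filter fixed its direction. The candidate PC-5p-53453_150 had 110.3, 148 and 56.1 reads in 8107 at 35 DAF, against 0, 8.22 and 4.83 at 15 DAF, and was listed at 0 in 8106 at 35 DAF, against 0, 10.4 and 5.04 at 15 DAF. In the other direction, PC-5p-105229_70 was listed at 0 in 8107 at 35 DAF, against 12.3, 16.4 and 7.25 reads at 15 DAF, and had 6.46, 22.8 and 10.8 in 8106 at 35 DAF, against 5.58, 4.16 and 0 at 15 DAF.

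Among other legume families, miR1511 was below 0. The 18-nt gma-miR1511_R-2, which equals the first 18 bases of gma-miR1511_R+1_1, had 86.5, 278 and 103 reads in 8107 at 35 DAF, against 1066, 3765 and 1706 at 15 DAF. Line 8106 held 994, 3738 and 1082 at 35 DAF, against 203, 685 and 380.2 at 15 DAF. Replicate 2 was highest in every group, but the stages did not overlap in either line, and it fell in 8107 and rose in 8106. The difference was -5.88 ± 0.98 (limma adjusted p = 8.32e-04) and was also called without the replicate 2 libraries. Likewise the 18-nt gma-miR482b-3p_R-4, the first 18 bases of gma-miR482b-3p, had 0, 28.7 and 0 reads in 8107 at 35 DAF, against 18.04, 95.9 and 41.9 at 15 DAF. In line 8106 there were 34.7, 163 and 35.2 at 35 DAF, against 5.58, 22.9 and 5.04 at 15 DAF. In both 18-nt entries the replicate 2 libraries were the high ones, and in the second they overlapped the other groups. Its difference was -6.40 ± 1.82 (limma adjusted p = 0.0169). The legume list held 3 of 19 sequences above 0 (15.8%, against 22.3% of all tested) and 10 below (52.6%, against 18.7%), with a median of -1.03. Several miR1511 sequences had identical values, and with identical ones counted once 3 of 15 were above and 7 below. However, with equal totals 6 were above and 1 below, and without replicate 2 of 8107 at 15 DAF 6 were below.

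Some calls lay near the threshold and were lost when 1 library was left out. The abundant gma-miR1511_R+1_1 differed by -1.18 ± 0.36 (limma adjusted p = 0.0239). The call was lost with equal totals (-0.24) and quantile normalization (-0.10), and with any 1 of 5 libraries left out (replicate 1 or 3 of 8107 at 35 DAF, replicate 2 of 8107 at 15 DAF, replicate 1 or 3 of 8106 at 15 DAF), where it was -1.17 to -1.03 (adjusted p 0.0509 to 0.0601). The arm ahy-MIR3509-p3_2ss16AG20TG differed by 3.27 ± 0.98 (limma adjusted p = 0.0224) and was lost without replicate 1 or 3 of 8107 at 35 DAF, replicate 2 of 8107 at 15 DAF or replicate 1 of 8106 at 15 DAF (2.98 to 3.10, adjusted p 0.0514 to 0.0563). The miR164 form mtr-miR164a_1ss21AT, at -3.17 ± 0.98 (limma adjusted p = 0.0251), was lost without replicate 2 or 3 of 8107 at 35 DAF, replicate 1 of 8107 at 15 DAF, replicate 2 of 8106 at 35 DAF or replicate 1 of 8106 at 15 DAF (-3.02 to -2.64, adjusted p 0.0503 to 0.0601). Equal totals (-2.65, adjusted p = 0.0651) and leaving out all replicate 2 libraries (-2.38, adjusted p = 0.156) ended it too. For the miR408 guide ahy-miR408-3p, whose family acts on copper proteins such as plantacyanin, all 3 8107 libraries at 35 DAF were listed at 0, against 30.9, 44.5 and 37.4 reads at 15 DAF, with 0, 3.35 and 0 in 8106 at 35 DAF, against 0, 6.23 and 10.5 at 15 DAF. Its difference of -3.84 ± 1.24 (limma adjusted p = 0.0307) was no longer called without any 1 of 6 libraries (each replicate of 8107 at 35 DAF, replicate 2 or 3 of 8107 at 15 DAF, replicate 2 of 8106 at 35 DAF), at -3.84 to -3.13 (adjusted p 0.0508 to 0.061). It was also not called with voom on recovered reads (-2.40, adjusted p = 0.336), without all replicate 2 libraries (-3.37, adjusted p = 0.116), with a pseudocount of 0.5 (adjusted p = 0.0506) or with no filter (adjusted p = 0.0535).

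The fragment-like list, families that resemble pieces of tRNA or rRNA, held 3 of 15 sequences above 0 and 6 below, with a median of -2.10. Of all tested sequences, 22.3% were above 0 and 18.7% below. Several miR6300 sequences had identical values. With identical ones counted once, the list held 3 of 10 above and 3 below, with a median of -1.28. Its summed level was 1464 to 1625 reads in 8107 at 35 DAF, 2064 to 2489.9 in 8107 at 15 DAF, 1630.1 to 4104 in 8106 at 35 DAF and 961 to 1662 in 8106 at 15 DAF, 0.145 to 0.408% of the listed reads of a library. In gma-miR6300_R+2_2 the reads were 33.5, 41.6 and 11.2 in 8107 at 35 DAF, against 125, 192 and 159.9 at 15 DAF. Line 8106 had 90.1, 234 and 88.1 at 35 DAF, against 49.3, 76.5 and 68.4 at 15 DAF. The difference was -3.53 ± 0.71 (limma adjusted p = 0.00271). The parent entry gma-miR6300, at -3.36 ± 1.18 (limma adjusted p = 0.0427), was lost without any 1 of 7 libraries (replicate 1 or 3 of 8107 at 35 DAF, replicate 2 or 3 of 8107 at 15 DAF, replicate 2 of 8106 at 35 DAF, replicate 1 or 3 of 8106 at 15 DAF), at -3.42 to -2.59 (adjusted p 0.0718 to 0.0934). The same happened with equal totals (-2.43, adjusted p = 0.108) and with no filter (adjusted p = 0.0588). The form gma-miR6300_R+6_2 was not called (-0.85 ± 1.02; limma adjusted p = 0.531). Outside the lists, a pair of near-identical grapevine-named arms, vvi-MIR3630-p5_2ss18AG19CT and vvi-MIR3630-p5_2ss19AG20CT, fell in 8107 at low levels. The second had 0, 11.2 and 0 reads in 8107 at 35 DAF, against 28.01, 45.9 and 31.8 at 15 DAF. In 8106 it had 12.9, 37.8 and 21.7 at 35 DAF, against 3.25, 12.8 and 6.30 at 15 DAF. Their differences were -5.44 ± 1.35 and -5.56 ± 1.28 (limma adjusted p = 0.00894 and 0.006), and the pair may share reads.

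**Figure D4:**
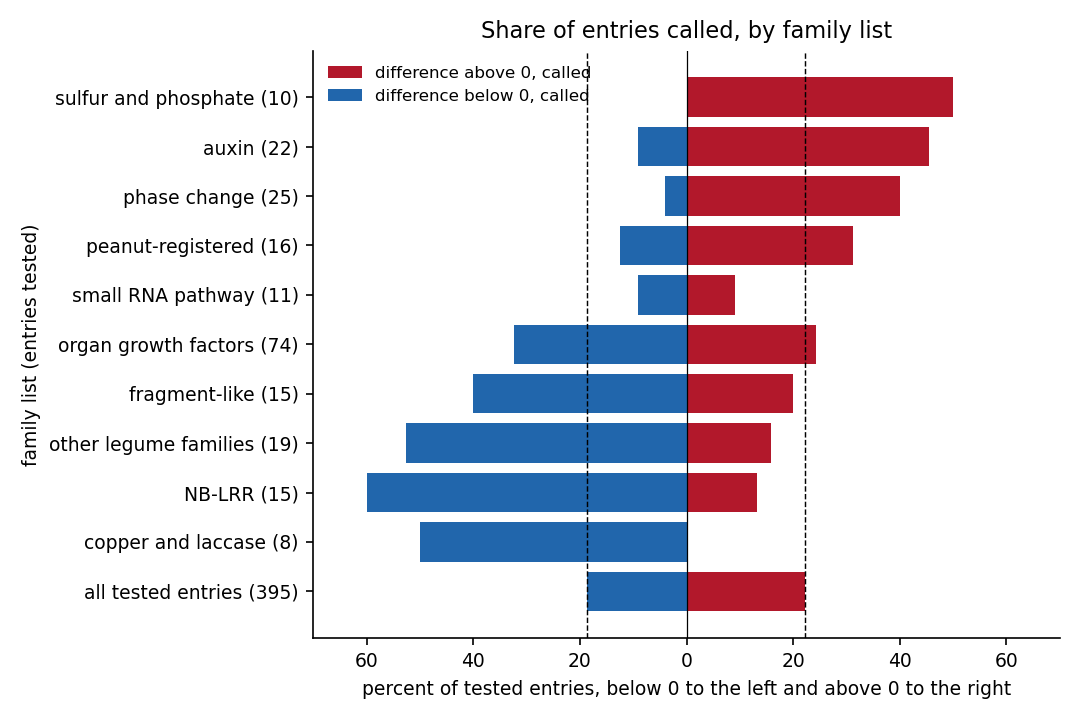
Share of the tested sequences of each family list called above 0 (red, to the right) and below 0 (blue, to the left) for the difference of stage changes, in percent, with the number tested in brackets. Dashed lines mark the shares over all 395 tested sequences, 22.3% above and 18.7% below. The sulfur and phosphate list reaches furthest past the first line (5 of 10 sequences) and the NB-LRR list furthest past the second (9 of 15).

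When reads were summed over each family, with every predicted candidate as its own row, 69 of 216 rows (31.9%) were called, and of the 58 family rows 35 were. Among the called sums, besides miR2199, miR3516 and miR5368, those furthest above 0 belonged to miR3515 (5.43 ± 1.58), miR828 (3.78 ± 1.09), miR393 and miR395 (2.22 ± 0.31). The sums of miR3515, miR828 and miR5368 reached 10 reads in 8107 at 35 DAF alone. The filter thus fixed their direction, and their rank supports nothing. The miR3515 call was lost without all replicate 2 libraries (4.32, adjusted p = 0.175) and without replicate 1 or 2 of 8107 at 15 DAF, replicate 1 of 8106 at 35 DAF or replicate 2 or 3 of 8106 at 15 DAF (4.86 to 5.10, adjusted p 0.0524 to 0.0605). The miR828 sum, from a family that acts on MYB factors of pigment synthesis, averaged 22.8 ± 4.31 reads in 8107 at 35 DAF, against 0 at 15 DAF. Line 8106 averaged 2.52 ± 2.39 at 35 DAF, against 1.12 ± 1.94 at 15 DAF (SD, n = 3 each). Furthest below 0 among the called sums were miR3630 (-6.32 ± 1.52), miR3508, miR6300 (-2.33 ± 0.37), miR164 (-2.29 ± 0.30) and miR398 (-2.03 ± 0.43). The miR164 sum averaged 1195 ± 231 reads in 8107 at 35 DAF, against 8636 ± 1649 at 15 DAF. Line 8106 averaged 5882 ± 1433 at 35 DAF, against 8539 ± 1008 at 15 DAF. Of families that act on growth factors, miR169 (1.86 ± 0.23) and miR396 (0.69 ± 0.22) were above 0, while miR159, miR171, miR319 and miR394 were not called. A fit with the replicate number as a block also called miR171 (-0.41) and miR319 (-0.76), each at an adjusted p of 0.0306, and miR319 was called without all replicate 2 libraries (-0.71, adjusted p = 0.0447). With equal totals miR171 was at 0.53 (adjusted p = 0.0159). The miR396 call was lost with median centring (0.31, adjusted p = 0.618), with no filter (adjusted p = 0.0656) and without any 1 of 10 libraries, all but replicate 3 of 8107 at 35 DAF and replicate 2 of 8106 at 35 DAF (0.53 to 0.73, adjusted p 0.0527 to 0.0846). The miR166 sum, at -0.93 ± 0.20, turned to 0.01 with equal totals, the miR1507 sum, at -0.46 ± 0.13, to 0.48, the miR171 sum, at -0.41 ± 0.19, to 0.53, and the miR3518 sum, at -0.90 ± 0.23, to 0.03.

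**Figure D5:**
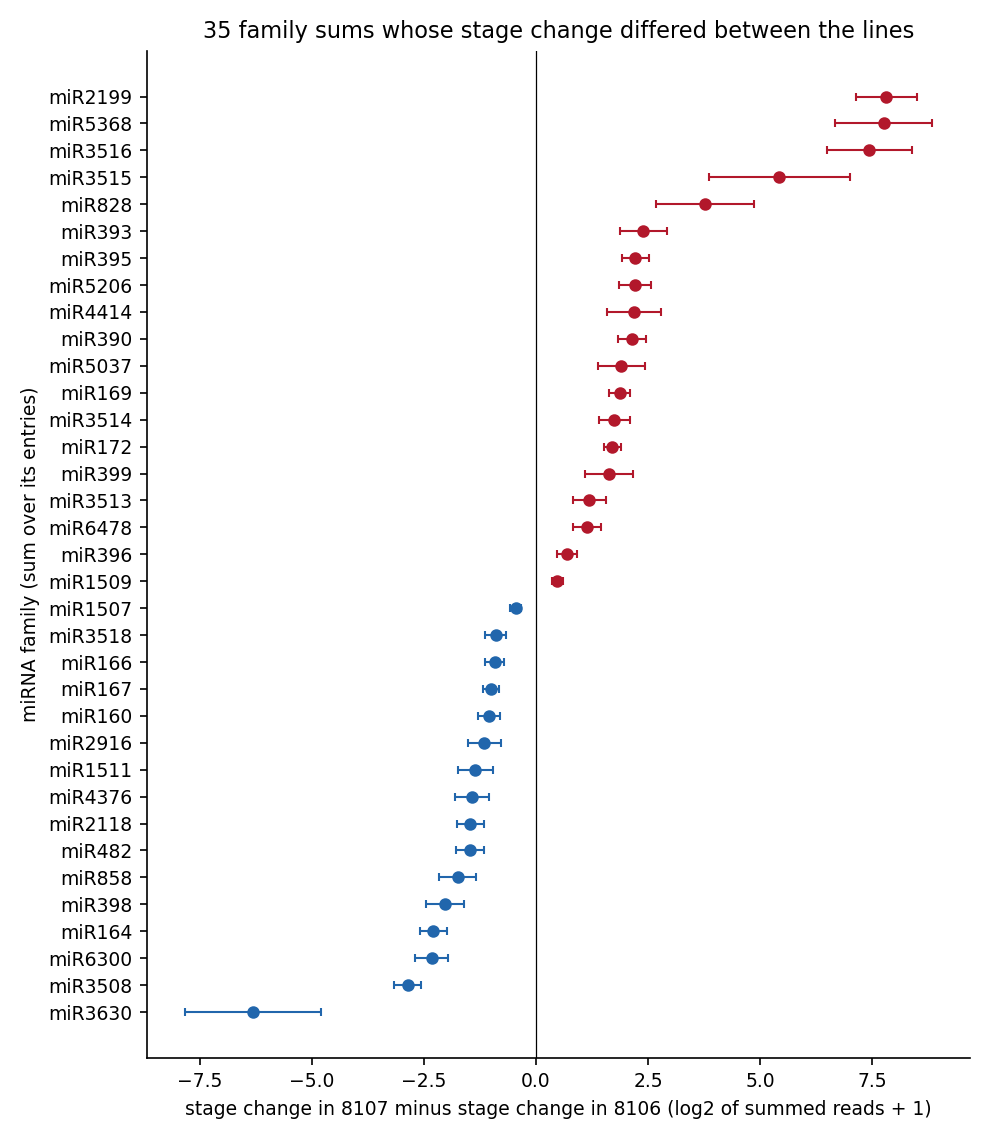
Difference of the stage changes, 8107 minus 8106 (log2 of summed reads + 1, horizontal axis), of the 35 family sums that were called; points are estimates from 3 libraries per group and bars their SE. Those above 0 run down from 7.81 for miR2199, and those below 0 down to -6.32 for miR3630.

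Sequence length and class went with the calls. Of 95 tested 24-nt sequences 9.47% were called, 7 above 0 and 2 below, against 52.5% of the 162 of 21 nt and 48.6% of the 72 of 22 nt. Over all tested sequences the shares were 41.0% called, 22.3% above 0 and 18.7% below. Of the 24-nt sequences, 87.4% were predicted candidates. Those of 18 to 20 nt were mostly below 0, with 6 of 39 above (15.4%), 16 below (41.0%) and a median of -1.22. Without replicate 2 of 8106 at 35 DAF 12 were above. With equal totals the balance turned, to 11 above and 9 below with a median of -0.30. The labels' protocol states that inserts of 22 to 30 nt were cut from the gel, so the shorter sequences lie outside the stated range. Of those of 23 to 25 nt, 15 of 122 were above 0 (12.3%) and 5 below (4.1%). Equal totals gave 25 above and 3 below, and quantile normalization 11 above and 10 below. Without replicate 1 of 8106 at 15 DAF 9 were above. Without replicate 2 of 8106 at 35 DAF, or without all replicate 2 libraries, 12 were below. Known miRNAs had 40 of 171 above 0 (23.4%, near the 22.3% of all tested) and 52 below (30.4%, against 18.7%). Other hairpin arms had 20 of 66 above (30.3%) and 12 below (18.2%, near 18.7%), and predicted candidates 28 of 158 above (17.7%) and 10 below (6.33%). Class and length overlap: among predicted candidates 18 of 40 at 21 nt were called (45.0%), against 7 of 83 at 24 nt (8.43%).

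The degradome table lists cleavage sites with an alignment score per small RNA, the best being 0. It names no library, so a site cannot be assigned to a line or stage. Transcripts were listed for 47 of the 74 sequences called below 0 (63.5%) and for 33 of the 88 above 0 (37.5%), against 150 of all 395 tested (38.0%). The best match of ahy-MIR3516-p5, at a score of 0, was a transcript annotated ROS1, a DNA glycosylase that removes methylated cytosine, while mtr-miR2199_1ss17AG, PC-3p-23476_334, PC-3p-646_6682 and ahy-miR167-3p_L-1 had 0 transcripts listed. Both miR156 guides had SPL transcripts, mtr-miR156e with SPL18 at a score of 0 and mdm-miR156a_1ss11GA with SPL6 and SPL13A among others at 3. The miR319 form that fell in 8106, mtr-miR319a-3p_R+1_2, had TCP2 at 2.5, and the form that rose there, mtr-miR319a-3p_L+1_1ss21CT, had wdr82-b as its best match at 3.5. Further best matches were NAC021 at 2 for mtr-miR164a, ATHB-15 at 2.5 for mtr-miR166a, RAP2-7 and AP2 at 1 for mtr-miR172d-3p_R+1, ARF17 at 0.5 for mtr-miR160a and SCL6 at 2.5 for gma-miR171n_1ss20TC. Other guides had no transcript named for their known targets. The most abundant sequence, ahy-miR167-5p, had MED12 transcripts at 3.5 and no auxin response factor. Both miR398 guides had no superoxide dismutase, with Prep at 3 for mtr-miR398b and PBS1 at 4 for ahy-miR398_R+1, and gma-miR482b-3p had 1 transcript, without a symbol, at 3.5. For the passenger mtr-miR172c-5p the best match was PRH at 3, and for gma-miR1511_R-2 it was REV1 at 3.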

How the data were processed

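Each library has 1 column of signal in the small RNA table, which the authors deposited under the name normalized reads, per the file headers. Their normalization and trimming are not given in the sources used here. Because its predicted entries sit 1 column to the right, 1 deposited column mixes text and numbers and was read as a score before the shift was undone. The degradome table gives an alignment score that the authors deposited, per the file headers. Per the labels' protocols, inserts of 22 to 30 nt were sequenced as single reads of 50 bases, and Bowtie is named in the submitters' processing notes, its role not given. Of 1082 lines, 795 sequences were kept, 1 row each; 36 sets, holding 79 sequences, had identical values in all libraries and may share reads.

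Values were taken as log2(value + 1), and sequences with at least 10 normalized reads in at least 3 libraries entered a limma 3.58.1 fit with a mean per group and a variance trend. The contrast was the change from 15 to 35 DAF in 8107 minus that in 8106, called at a Benjamini-Hochberg adjusted p under 0.05 over 395 sequences. The same fit was made on 216 sums (families and single candidates), and the script was tested on simulated data. Depth was read from the step between values: 98.2 to 99.4% of values were whole multiples within 0.02 steps, giving 580010 to 3243622 reads per library, which entered limma's voom as an alternative. Strands were assigned with Biopython 1.88 alignments, at a score of at least 9 and a margin of at least 3. Alternatives were other pseudocounts, filters and scalings, a replicate block, recovered reads and each library left out. Leaving out all replicate 2 libraries was chosen after seeing the data. So was leaving sequences that reached 10 normalized reads in 1 group only out of the overall and strand counts.

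Members, 10 family lists and the naming rule were chosen with earlier results of these data known. The rule named the 8 highest and 8 lowest called differences among known miRNAs, the 4 highest and 4 lowest among arms and candidates, the 8 most abundant entries and the 2 most abundant of each list. A further 16 entries were named after their values were seen.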

Additional observations from a re-analysis of the deposited data

Results flagged for a closer look

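For each of the 50 named sequences called above, the test of the difference between the lines is itself the reason for a closer look: the stage change in 8107 and that in 8106 differed past the adjusted threshold (limma), and the values are differences, 8107 minus 8106, on the log2 scale of normalized reads + 1. No explanation was tested for any of them.

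Among phase change and auxin families, those above 0 were ahy-miR167-3p_L-1 at 4.78, mdm-miR156a_1ss11GA at 4.26, ptc-MIR156c-p3_1ss12AC at 3.74, mtr-miR172c-5p at 3.42 and mtr-miR172d-3p_R+1 at 1.57. Those below 0 were ahy-miR167-5p at -1.08, mtr-miR160a at -1.27 and ppe-miR156a_R+1_1ss5AG at -2.62. In the families that act on organ growth factors, values above 0 were found for mtr-miR166e-5p_2ss10GT11CT at 4.92, mtr-miR169f_R+2_1ss1AT at 4.12 and mtr-miR319a-3p_R+1_2 at 3.30. Values below 0 were found for mtr-miR166a at -0.93, mtr-miR319a-3p_L+1_1ss21CT at -1.50, mtr-miR166a_1ss20CT at -1.75, gma-miR171n_1ss20TC at -2.02, mtr-miR164a at -2.35, mtr-miR164a_1ss21AT at -3.17 and mtr-miR166a_L+2 at -3.18. Families that act on nutrient, resistance and small RNA pathway genes gave positive differences for mtr-miR1507-5p_R-1_2ss5TA18AG at 4.14, mdm-miR482a-5p_L-1_2ss11TG20AT at 3.17, csi-miR1515_1ss11GA at 2.30 and mtr-miR395a_L+1R-1_1ss21TC at 2.27. They gave negative ones for mtr-miR1507-3p_L+1R-1 at -1.18, gma-miR482b-3p at -1.73, gma-MIR168a-p3 at -1.89, mtr-miR398b at -2.52, ahy-miR398_R+1 at -2.96 and gma-miR482b-3p_R-4 at -6.40. Of the legume, peanut-registered, fragment-like and predicted entries and those in no list, the positive ones were ahy-MIR3516-p5 at 7.44, PC-3p-646_6682 at 5.40, ahy-MIR3509-p3_2ss16AG20TG at 3.27 and ahy-miR3514-3p at 1.75. The negative ones were gma-miR1511_R+1_1 at -1.18, ahy-miR3508 at -2.86, gma-miR6300 at -3.36, gma-miR6300_R+2_2 at -3.53, vvi-MIR3630-p5_2ss18AG19CT at -5.44, vvi-MIR3630-p5_2ss19AG20CT at -5.56 and gma-miR1511_R-2 at -5.88.

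In 11 of the 50, all 3 libraries of at least 1 group were listed at 0, so the fitted size depends on the pseudocount and is no bound on a fold change. These were, above 0, PC-3p-23476_334 at 8.70, mtr-miR2199_1ss17AG at 8.30, gma-MIR5368-p3 at 7.76, PC-5p-53453_150 at 6.74, sly-miR167b-3p at 5.25, nta-miR156a_R+3_1ss11GA at 4.74, ptc-MIR319a-p5 at 4.37 and nta-miR171a at 3.50. Below 0 they were ahy-miR408-3p at -3.84, PC-5p-105229_70 at -5.62 and ahy-MIR398-p5_1ss9CA at -6.26. For gma-MIR5368-p3 and sly-miR167b-3p, which reached 10 reads in 8107 at 35 DAF alone, the filter fixed the direction as well.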

How the results depend on the processing

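On the deposited scale 162 sequences were called; leaving out each library in turn gave 140 to 173 calls, 77 to 99 above 0 and 60 to 77 below, and 25 to 37 in opposite directions. With equal library totals 153 were above 0 and 32 below. Filtering at 50 normalized reads tested 200 sequences and called 118 for the stage change in 8107, against 183 of 395. Same-numbered replicates did not all deviate together (r 0.039 to 0.419 for number 1, 0.512 to 0.677 for number 2 and 0.119 to 0.544 for number 3; 8 of 12 libraries correlated best with their own number). Of 18 same-number correlations 17 were over 0.1, including every stage pair within a line, and 1 between the lines at 35 DAF was 0.039, so the numbers were not taken as pairs across all groups. A fit with the replicate number as a replicate block called 210, 124 above 0 and 86 below, with 55 in opposite directions, 230 stage changes in 8107 and 172 in 8106. On reads recovered from the step, voom called 210, with 63 in opposite directions. Signs turned with equal totals for mtr-miR166a (0.009) and the sums of miR156 (0.87), miR162 (0.85), miR171 (0.53), miR1507 (0.48), miR3518 (0.0323) and miR166 (0.0121). They turned with quantile normalization for gma-miR168a (0.64), mtr-miR166a (0.28) and the sums of miR156 (0.92), miR166 (0.40) and miR1509 (-0.0745), and with a pseudocount of 10 for the miR397 sum (-1.15). The cause was not tested. Depth of 580010 to 3243622 reads per library, with the lowest listed value at 6 reads in 11 of them, limits what can be said of sequences listed at 0.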

Other observations

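Predicted candidates and less abundant family members also moved in opposite directions in the lines. They were chosen after their values were seen, from the 33 called in opposite directions, and are described with no explanation. Of the 158 predicted candidates tested, 7 were among the 33, a smaller share than the 33 of all 395 tested. The 22-nt candidate PC-5p-362_10574 averaged 1434 ± 58.7 reads in 8107 at 35 DAF, against 750.0 ± 90.5 at 15 DAF. Line 8106 averaged 136 ± 11.6 at 35 DAF, against 1585 ± 127 at 15 DAF (SD, n = 3 each). It rose in 8107 and fell in 8106, with a difference of 4.47 ± 0.16 (SE; limma adjusted p = 3.55e-08). Similarly, the 21-nt PC-3p-3594_1757 averaged 329.9 ± 65.2 reads in 8107 at 35 DAF, against 117 ± 30.7 at 15 DAF. Line 8106 averaged 46.2 ± 18.6 at 35 DAF, against 213 ± 32.6 at 15 DAF. The difference was 3.75 ± 0.41 (SE; limma adjusted p = 6.09e-05). Another candidate, PC-3p-3730_1713, differed by 3.50 ± 0.37 (SE; limma adjusted p = 5.29e-05).

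Within families, the 24-nt gma-miR169e_L+3R+1 averaged 165 ± 48.6 reads in 8107 at 35 DAF, against 63.4 ± 6.26 at 15 DAF. Line 8106 averaged 32.6 ± 10.9 at 35 DAF, against 159 ± 51.6 at 15 DAF. The difference was 3.58 ± 0.48 (SE; limma adjusted p = 1.94e-04). In the miR171 family, gma-miR171n fell in 8107 and rose in 8106, while other members did the opposite. Of these, ptc-MIR171m-p5_1ss17CT averaged 963 ± 72.8 reads in 8107 at 35 DAF, against 669 ± 16.9 at 15 DAF. Line 8106 averaged 494 ± 47.4 at 35 DAF, against 964 ± 75.3 at 15 DAF. Its difference was 1.49 ± 0.15 (SE; limma adjusted p = 4.40e-05), and that of lja-miR171d-5p, named from Lotus japonicus, was 1.76 ± 0.38 (SE; limma adjusted p = 0.00438). Of the 10 tested miR171 sequences, 6 were called above 0 (against 22.3% of all tested) and 3 below (against 18.7%). The sum over the family was not called.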
